A study of Drosophila melanogaster with 2 samples.

Results

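Drosophila melanogaster Raf and 9 other genes of the EGFR-Ras-MAPK pathway (Ras85D, Dsor1, rl, ksr, Sos, Egfr, pnt, aop and Lk6) were examined in chromatin bound by CG3065, which belongs to the Sp/KLF zinc finger proteins. These 10 genes, of 13945 annotated protein-coding genes, were chosen from earlier results on the same peaks, in which Raf carried a run of peaks. Every count at these genes is therefore a description, and none was tested. Chromatin came from whole embryos of both sexes aged 0 to 16 h, of a transgenic line that stably carries CG3065 with GFP at its C-terminus, and was precipitated with an anti-GFP antibody. The labels give 1 group, as biological replicates 1 and 3, and do not say whether the native CG3065 gene was still present. No group without the tag and no input library was analysed here, so no comparison between conditions was possible. In chromatin from whole embryos a peak cannot be assigned to a cell type.

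In this pathway, binding of a ligand to the receptor tyrosine kinase Egfr recruits the exchange factor Sos, which loads the small GTPase Ras85D with GTP. Active Ras85D recruits Raf, the first kinase of a cascade in which Raf phosphorylates the kinase Dsor1 (MEK) and Dsor1 phosphorylates rl (ERK), with ksr as a scaffold. In the nucleus, ERK activates the ETS factor pnt and inactivates the ETS repressor aop, also called Yan. Lk6 is the fly member of the MNK family, kinases that bind ERK and phosphorylate the translation factor eIF4E. In the embryo the cascade patterns the ventral ectoderm downstream of Egfr, and the termini downstream of the receptor torso.

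The deposited values are peak lists. A set of 2451 peaks was named as thresholded on the irreproducible discovery rate, derived from both replicates, and is called the IDR set here. A longer, relaxed list of 30000 entries came from the pooled reads, and relaxed lists of 30000 and 26271 entries came from replicate 1 and replicate 3. The relaxed lists were named as peaks and background, so an entry in them need not mark binding. Each entry has a summit, its point of highest signal, and a signal, the enrichment value that the authors' peak caller gave it, which has no unit and is comparable within a list only. Signal ran between 81.3 and 1017 in the IDR set, with a median of 116, and between 21.5 and 1017 in the pooled relaxed list, with a median of 30.9. The IDR set consisted of the 2451 strongest pooled entries. The files hold no read counts, so the depth is unknown. A gene's window is its annotated body with 5 kb on either side, in dm6 coordinates.

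The windows held 21 IDR summits, 10 at Raf, 7 at aop, 2 at pnt and 1 each at Ras85D and Lk6. The sequences of 11 of them are printed because they carry the densest runs and the strongest summit of each of these 5 genes. Each is 101 bases of the dm6 plus strand centred on the summit, from RefSeq's Release 6 assembly. Capitals mark GAGAG or its reverse complement CTCTC, a word bound by GAGA factor, and TTGGCG or its reverse complement CGCCAA, a word picked after the windows had been read.
Raf strongest summit, chrX:2297677-2297777: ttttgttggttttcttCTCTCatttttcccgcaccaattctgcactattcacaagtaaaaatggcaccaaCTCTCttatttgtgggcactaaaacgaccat
Raf intron summit, chrX:2299166-2299266: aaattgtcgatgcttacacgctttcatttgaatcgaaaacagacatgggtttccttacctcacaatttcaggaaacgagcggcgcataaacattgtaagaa
Raf intron summit, chrX:2300672-2300772: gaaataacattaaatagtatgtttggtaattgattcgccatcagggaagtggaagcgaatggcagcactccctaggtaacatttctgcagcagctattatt
Raf intron summit, chrX:2302226-2302326: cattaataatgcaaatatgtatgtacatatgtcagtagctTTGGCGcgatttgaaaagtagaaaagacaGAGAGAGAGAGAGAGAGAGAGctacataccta
Raf last summit of the run, chrX:2304041-2304141: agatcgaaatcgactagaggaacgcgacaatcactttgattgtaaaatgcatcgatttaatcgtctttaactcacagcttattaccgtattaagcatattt
aop promoter, chr2L:2161871-2161971: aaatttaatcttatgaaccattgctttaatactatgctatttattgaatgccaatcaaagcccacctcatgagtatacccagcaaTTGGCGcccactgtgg
aop intron, chr2L:2163599-2163699: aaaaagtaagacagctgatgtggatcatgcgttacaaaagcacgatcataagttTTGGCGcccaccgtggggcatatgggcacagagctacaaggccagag
aop intron, strongest, chr2L:2164915-2165015: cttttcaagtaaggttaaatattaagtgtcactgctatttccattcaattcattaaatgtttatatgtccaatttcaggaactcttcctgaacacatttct
Ras85D promoter, chr3R:9513170-9513270: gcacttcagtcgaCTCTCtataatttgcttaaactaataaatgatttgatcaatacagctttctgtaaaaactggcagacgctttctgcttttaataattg
pnt intron, chr3R:23326431-23326531: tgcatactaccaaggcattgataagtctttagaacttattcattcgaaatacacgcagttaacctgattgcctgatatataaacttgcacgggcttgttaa
Lk6 intron, chr3R:11760988-11761088: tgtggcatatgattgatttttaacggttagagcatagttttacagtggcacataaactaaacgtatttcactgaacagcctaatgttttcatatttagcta

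None of the 21 windows held any of 4 GC-rich words of the kind that Sp/KLF proteins bind, CACACCC or its variant CACGCCC, and CCCACCC or its variant CCCGCCC, on either strand, while 11.3% of the 2451 IDR windows of the same length did. Extending the search to 100 bp either side of the summit also gave 0 of 21 at the members, against 15.7% of all IDR windows. In 101-base windows placed 500 bp to the right, the words were in 4.90% over the IDR set and in 2 of 21 at the members. With 21 windows, a count of 0 allows no firm reading against these shares. GAGAG lay within 50 bp of 5 of the 21 summits, among them the strongest at Raf and the promoter summit of Ras85D. It was in 11.0% of all IDR windows and in 14.5% of windows 500 bp to their right. At the members, 2 of 21 windows on the right held it. Within 100 bp it was found at 13 of 21 member summits, 7 of them at Raf, and in 5 of 21 member windows on the right. The shares were 23.4% of all IDR windows and 26.9% of windows placed 500 bp to the right of all IDR summits. With 21 windows, these counts too allow no firm reading. The words TATCGATA (the DRE), CAGGTAG (bound by Zelda) and CCGGAA (an ETS core) were at 0 of 21 within 50 bp, against 1.80%, 0.408% and 2.28% of all IDR windows. With 21 windows, shares that low allow no reading of these counts. Within 100 bp, CAGGTAG was at 1 of 21 and the other 2 words at 0. The median GC content of the member windows was 36.6%, against 34.7% for all IDR windows. A word in a window is a match of letters and does not show a bound site.

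Of the 10 genes, 5 had at least 1 IDR summit in the window, beside 33.2% of all protein-coding genes. Windows of the members were longer, with a median of 27.9 kb against 12.2 kb over all genes, so the 2 shares are not on an equal footing. An IDR summit lay within 500 bp of an annotated start site at 3 members, Raf, Ras85D and aop, beside 12.0% of all genes. Pooled relaxed summits were in the windows of all 10 members, 132 in all, beside 88.1% of all genes with at least 1. Every one of the 21 IDR summits had a summit within 200 bp in both replicate lists. Their median distance was 12 bp in replicate 1 and 14 bp in replicate 3. The pooled list was made from the reads of both replicates, so the matches are no separate evidence for the member peaks. Most IDR summits elsewhere in the genome also had a match in both lists, so the matches do not set the members apart. Of the 21 summits, 13 were intronic, 4 were at promoters, 2 were intergenic, 1 was in a 5′ untranslated region and 1 was in an exon of a noncoding RNA.

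**Figure D1:**
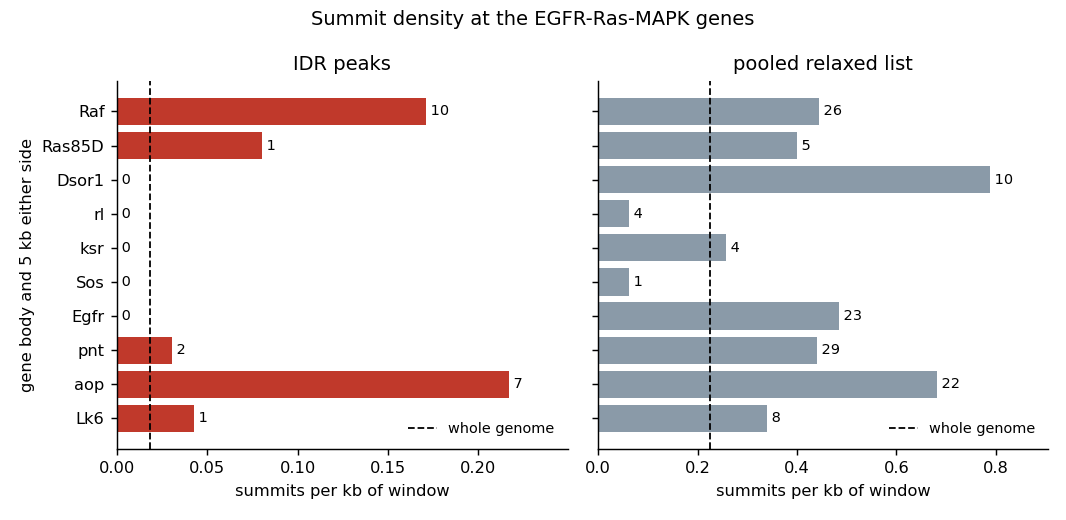
Summits per kb of window (horizontal axis) at the 10 genes, for the IDR set on the left and the pooled relaxed list on the right, with the number of summits beside each bar. The dashed line is the density over the whole genome. Raf (10 summits) and aop (7) stand far above it in the IDR set, and 5 genes have no IDR summit.

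The receptor gene Egfr (FBgn0003731, chr2R:21522420-21559977, plus strand) had no IDR summit. Its window held 23 pooled relaxed summits, or 0.484 per kb, against 0.224 per kb over the genome. The highest had a signal of 41.2, with 35.0 in replicate 1 and no match in replicate 3, and the median was 27.9. Only 5 of the 23 had a match in both replicates. Egfr was thus covered by many weak entries, all below the lowest IDR signal of 81.3. A summit lay 63 bp upstream of the downstream Egfr start, with a pooled signal of 25.4.

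Sos (FBgn0001965, chr2L:13813816-13819824, plus strand) had the fewest entries of the 10. Its window held 1 pooled summit, with a signal of 37.9, 25.2 in replicate 1 and no match in replicate 3. That summit lay 36 bp from the start of the neighbouring gene CG16865, and Sos was the only member with no pooled summit within 500 bp of its own start.

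Ras85D (FBgn0003205, chr3R:9510561-9513067, minus strand) had 1 IDR summit, 153 bp upstream of its start. Its signal was 159 in the pooled list, 76.9 in replicate 1 and 77.1 in replicate 3. The divergent gene Rlb1 starts 107 bp from the same summit, so the peak lies in a promoter region shared by both genes and closer to Rlb1. A second entry in the window, at chr3R:9515927 and 19 bp from the start of mRpL47, had a pooled signal of 80.9, the highest of the members' entries outside the IDR set.

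Raf (FBgn0003079, chrX:2295466-2343870, plus strand) has 2 annotated start sites, 44.8 kb apart. Transcripts from the upstream start cross an intron of 43.6 kb, between exons 2 and 3, before they reach the exons shared with the downstream transcript. That intron encloses a Tirant transposable element, the protein-coding genes CG14050, CG2854 and Ilp6 (which encodes an insulin-like peptide), and 2 noncoding RNA genes. The window of 58.4 kb held 10 IDR summits, or 0.171 per kb. This was 9.35 times the genome density of 0.0183 per kb. In all, 3.18% of protein-coding genes had at least that density, and 2.37% had a longer window. The pooled relaxed density at Raf, 0.445 per kb, was 1.99 times that of the genome, a value that 19.4% of genes reached.

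Of the 10 Raf summits, 7 lay in the first 10 kb downstream of the upstream start, in a run that spanned 7.83 kb. They stood 793, 997, 2261, 3750, 5256, 6810 and 8625 bp past that start. The first, at chrX:2296259 in the 5′ untranslated part of exon 2, had a pooled signal of 173, with 88.7 in replicate 1 and 83.8 in replicate 3. The peak 204 bp further on, at chrX:2296463 with a signal of 107, overlapped it and shared its match in replicate 3, so these 2 count as separate only in replicate 1 and the pooled list. The remaining 5 were in the first part of the long intron, at gaps of 1264, 1489, 1506, 1554 and 1815 bp.

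The strongest summit at Raf, chrX:2297727, had a signal of 347 in the pooled list, 170 in replicate 1 and 176 in replicate 3. It ranked 87 in the pooled list, 120 in replicate 1 and 71 in replicate 3. The other 9 ran between 88.3 and 173 in the pooled list, all of them below it, and in each replicate list the strongest also stood clear of the other 9. Next in the run came chrX:2299216 with a pooled signal of 135, 58.1 in replicate 1 and 73.9 in replicate 3. At chrX:2300722 the signal was 143 in the pooled list, 64.2 in replicate 1 and 77.5 in replicate 3. Both are in the intron and were found in each replicate, like the last 2 summits of the run. At chrX:2302276 the pooled signal was 121, with 70.3 in replicate 1 and 50.7 in replicate 3. At chrX:2304091 it was 125, with 71.9 in replicate 1 and 57.2 in replicate 3.

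The summits of the run were not copies of each other. Leaving out the overlapping pair, 20 pairs of whole peaks were compared, and the longest word shared by a pair had between 7 and 14 bases, with a median of 9. All 10 Raf summits had matches among the 2451 strongest entries of both replicates, 2 of them sharing 1 match in replicate 3.

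**Figure D2:**
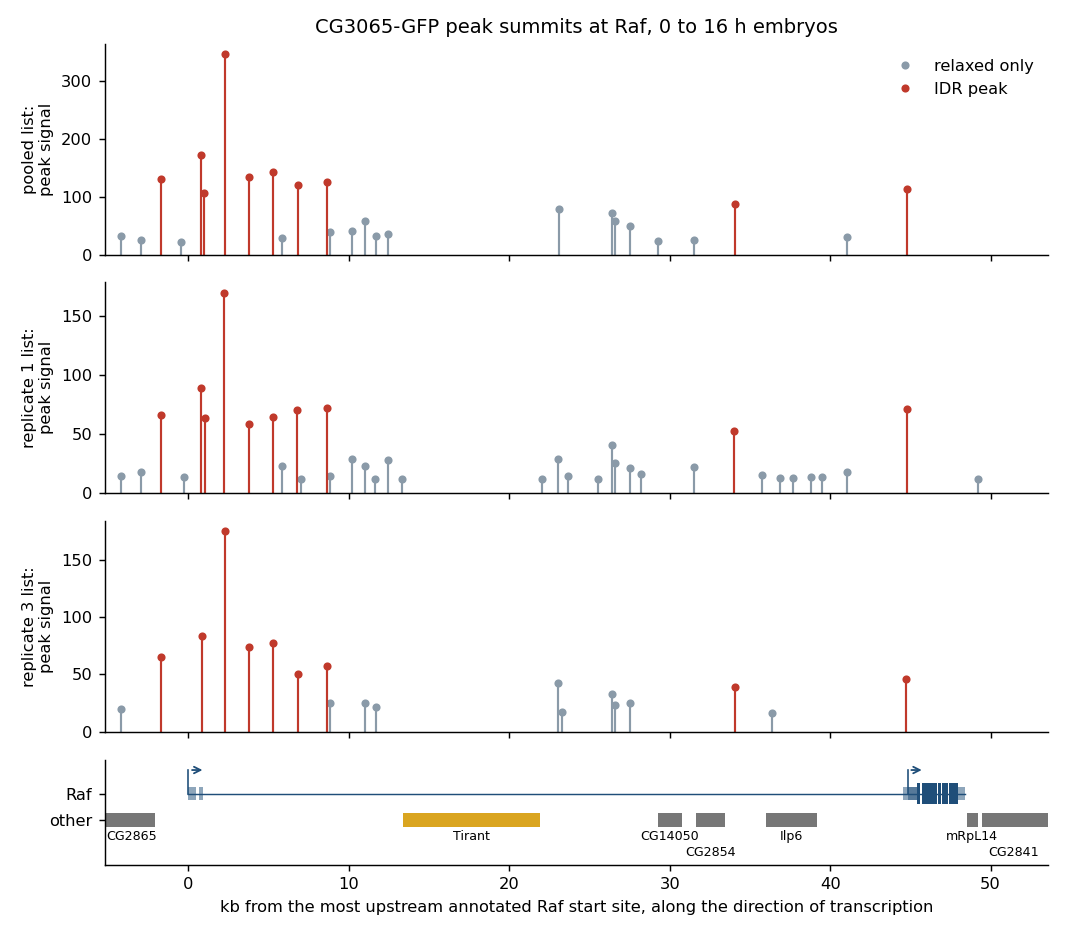
Peak signal (vertical axes, no unit) at Raf against distance in kb from the upstream start (horizontal axis), in the pooled, replicate 1 and replicate 3 lists, with IDR peaks or their replicate matches in red and other relaxed entries in grey. The lowest panel shows Raf exons (coding parts taller), start sites (arrows), and neighbouring or enclosed genes in grey and the Tirant element in gold. The run of 7 IDR peaks fills the first 10 kb (2 of the 7 share a match in replicate 3), and the coding exons carry no peak.

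Outside the run, 3 IDR summits lay in the Raf window. The one at chrX:2293751, 1715 bp upstream of the upstream start, was only 340 bp from the start of the divergent neighbour CG2865. Its signal was 130 in the pooled list, 66.4 in replicate 1 and 65.5 in replicate 3. At the downstream start, chrX:2340250 was 48 bp upstream, with a pooled signal of 114, 71.2 in replicate 1 and 46.2 in replicate 3. The weakest of the 10, chrX:2329525, lay in the intron 2397 bp from the start of CG2854 and 634 bp from that of lncRNA:CR33218. It had a signal of 88.3 in the pooled list, 52.7 in replicate 1 and 39.1 in replicate 3. The stretch between the first 10 kb and the downstream start, 34.8 kb long, thus had 0.0574 IDR summits per kb, against 0.7 per kb in the first 10 kb. The longer stretch includes the Tirant element, 13.4 to 21.9 kb past the upstream start, where no list had a summit. Whether peaks could be called in this element was not tested. From the downstream start to the gene end, which holds the coding exons, there was no summit in any of the 4 lists.

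Runs as dense as the one at Raf were rare in this IDR set. Only 3 of the 2451 IDR summits, or 0.122%, began a stretch of 10 kb with at least 7 IDR summits. They fell in 2 places, the Raf region starting at chrX:2293751, and one starting at chr2L:17378838 whose nearest start site is that of Lrch. The count depends on the overlapping peaks. When these were counted once, a choice made after seeing the data, Raf and Lrch each had at most 6 in 10 kb, and so did a place starting at chr2L:12003489, nearest to the start of Hacd1. By count over the whole window, 2 of the 13945 protein-coding genes, Raf included, had at least 10 IDR summits. That count is not corrected for window length. By density over the whole window Raf was less extreme. It was in place 180 of 351, counting Raf and the genes with 3 or more IDR summits and none shared with Raf. The nearest above were dco, a casein kinase gene, at 0.175 per kb, the Polycomb group gene Sfmbt at 0.175 and CLIP-190, which encodes a microtubule-binding protein, at 0.171. Those just below were CG12009 at 0.171, the Polycomb group gene ph-d at 0.171 and the glycosyltransferase gene C1GalTA at 0.169. Of these 6, CLIP-190 had 6 IDR summits in its window and the other 5 had 3 each. The CLIP-190 window overlaps the stretch starting at chr2L:17378838, so most of its summits are peaks already counted there.

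The scaffold gene ksr (FBgn0015402, chr3R:5478390-5483906, minus strand) lies inside the annotated Hcs gene on the opposite strand and had no IDR summit. Its highest pooled summit, with a signal of 50.4, was 139 bp from the Hcs start. It had a signal of 35.1 in replicate 1 and no match in replicate 3. Near the ksr start itself, 387 bp upstream, the pooled signal was 39.6, with 19.6 in replicate 1 and 16.0 in replicate 3. The highest entry of each replicate list lay elsewhere, 1.56 kb upstream of the ksr start in replicate 1 with a signal of 50.8 and rank 2072, and 1.54 kb upstream in replicate 3 with 25.8 and rank 5378. The pooled list had no summit there.

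Dsor1 (FBgn0010269, chrX:9247342-9250037, plus strand) came close to the IDR set. A summit 52 bp upstream of its downstream start had a pooled signal of 76.3, with 43.1 in replicate 1 and 39.3 in replicate 3. It ranked 2754 in the pooled list, while the IDR set ended at 2451. With 10 pooled summits in 12.7 kb, the Dsor1 window had the highest relaxed density of the 10 genes, 0.788 per kb, a value that 0.982% of all genes reached. Most of the 10 lay outside the 2.70 kb gene body, nearest to the starts of mxc, amx or CG17754. Only 3 of the 10 had a match in both replicates.

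The ERK gene rl (FBgn0003256, chr2R:1071462-1125927, plus strand) had only 4 pooled summits in 64.5 kb, or 0.0620 per kb, which 86.6% of genes reached. None was in the IDR set. The highest, 1171 bp past a start site, had a signal of 57.8 in the pooled list, 36.6 in replicate 1 and 16.4 in replicate 3. Relaxed entries at rl numbered 3 in replicate 1 and 9 in replicate 3, and rl was the only member with more in replicate 3. The rl body encloses annotated transposable elements, among them a Doc element. Whether peaks could be called in these elements, or over the rl window as a whole, was not tested.

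Lk6 (FBgn0017581, chr3R:11750931-11764457, minus strand) had 1 IDR summit, and it was the strongest at any member. Its signal was 673 in the pooled list, 344 in replicate 1 and 322 in replicate 3. It ranked 13, 14 and 12 in those 3 lists. The summit, at chr3R:11761038, was intronic, between the 2 Lk6 starts and 959 bp upstream of the proximal one, which lies at 11760079. No other Lk6 entry came near it, and the highest at an Lk6 start, 153 bp upstream of the distal one, had 48.0 in the pooled list, 30.4 in replicate 1 and 14.1 in replicate 3.

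The ETS activator gene pnt (FBgn0003118, chr3R:23290231-23346167, minus strand) has 3 start sites and had 2 IDR summits in 65.9 kb, or 0.0303 per kb. Both were in introns, more than 10 kb from any pnt start. One, at chr3R:23326481 and 12166 bp upstream of the nearest pnt start, had a signal of 161 in the pooled list, 101 in replicate 1 and 56.9 in replicate 3. The other, at chr3R:23331438, 14729 bp past the most upstream start and 2365 bp from the start of the enclosed lncRNA:CR46090, had a signal of 85.9 in the pooled list, 54.5 in replicate 1 and 30.7 in replicate 3. In each of the 3 lists the first was the higher. At the pnt starts, the highest pooled signal was 65.6, at 281 bp upstream of the middle one.

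**Figure D3:**
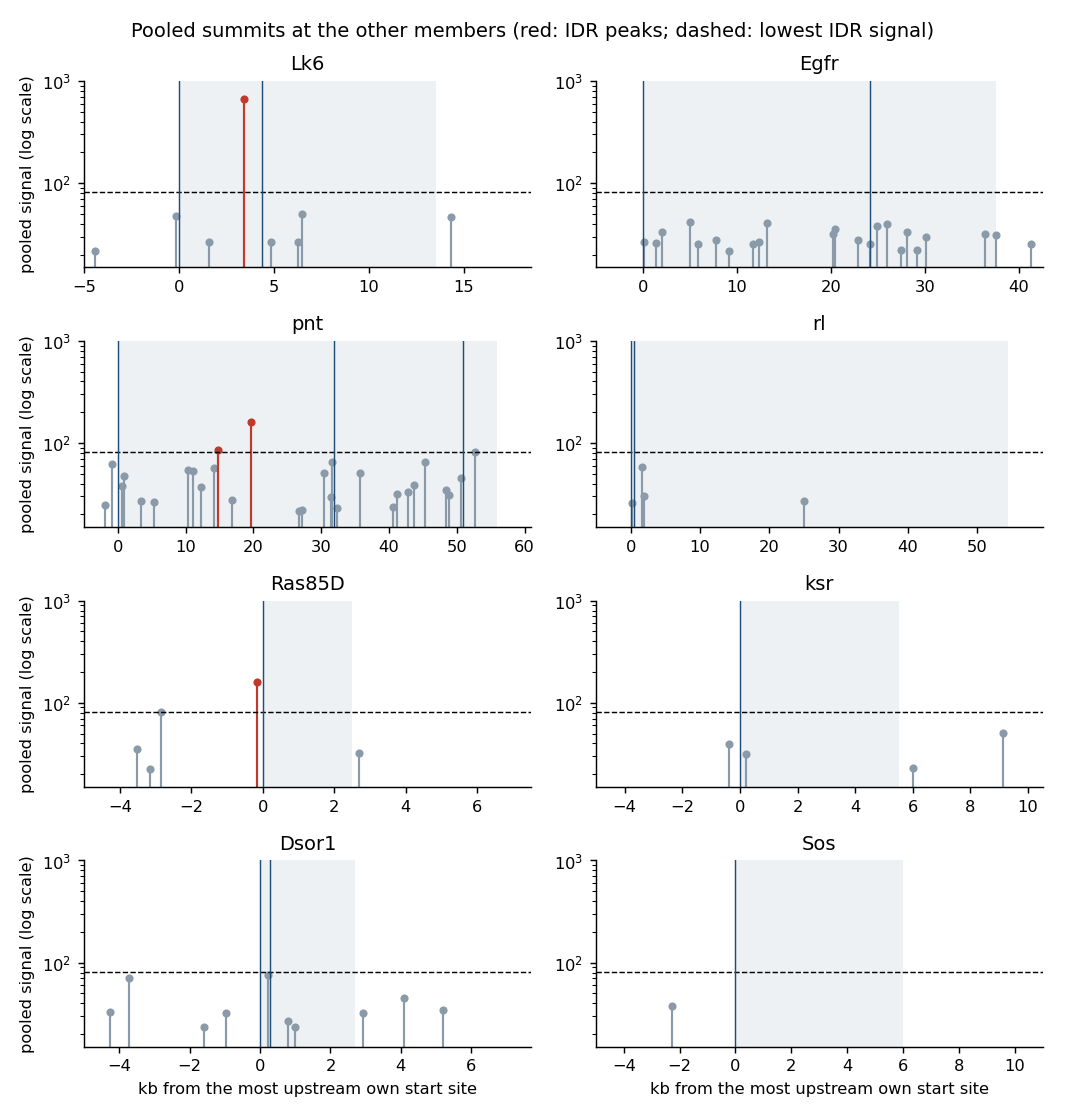
Pooled signal on a log scale (vertical axes, no unit) against distance in kb from each gene's most upstream start (horizontal axes) for the 8 genes other than Raf and aop. Red marks IDR peaks, grey marks other relaxed entries, the dashed line is the lowest IDR signal of 81.3, shading is the gene body and blue lines are start sites. The single Lk6 peak of 673 is the tallest, and the entries at Egfr, rl, ksr and Sos lie below 58.

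The ETS repressor gene aop (FBgn0000097, chr2L:2156484-2178754, minus strand) had 7 IDR summits in a window of 32.3 kb. Its density of 0.217 per kb was 11.8 times that of the genome and above that of Raf. In all, 0.896% of genes had at least this density. The order of these 2 genes depended on what was counted, since in the gene body alone aop had 0.180 per kb against 0.186 at Raf, and among IDR peaks above the median IDR signal aop was also less dense than Raf. The difference of aop minus Raf, 0.0457 per kb, was 0.0767 without replicate 1 and 0.0147 without replicate 3. In the pooled relaxed list aop had 0.682 summits per kb, a value that 2.82% of genes reached.

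The aop summits fell in a cluster at each of its 2 start sites. Around the proximal start, chr2L:2161921 lay 394 bp upstream, with a pooled signal of 83.1, 43.5 in replicate 1 and 36.8 in replicate 3. This was the lowest IDR signal at any member. Further into the intron, chr2L:2163649 was 2122 bp upstream of that start, with a pooled signal of 159, 82.9 in replicate 1 and 68.0 in replicate 3. The highest at aop, chr2L:2164965 at 3438 bp upstream, had a signal of 167 in the pooled list, 78.2 in replicate 1 and 84.6 in replicate 3. Neither replicate set these last 2 apart, since each was the higher in 1 replicate.

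Around the distal aop start, 12877 bp further on, chr2L:2177842 was 912 bp past the start, with a pooled signal of 97.5, 44.5 in replicate 1 and 50.1 in replicate 3. Upstream of the gene, chr2L:2179589 was 835 bp before the start, with a pooled signal of 97.1, 56.0 in replicate 1 and 39.4 in replicate 3. At chr2L:2180258, 1504 bp upstream, the signal was 144 in the pooled list, 74.9 in replicate 1 and 74.5 in replicate 3. The outermost, chr2L:2182963 at 4209 bp upstream, lay in an exon of lncRNA:CR43751, with a pooled signal of 105, 53.3 in replicate 1 and 50.4 in replicate 3. At most 4 of the aop summits fell in any 10 kb, against 7 at Raf.

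**Figure D4:**
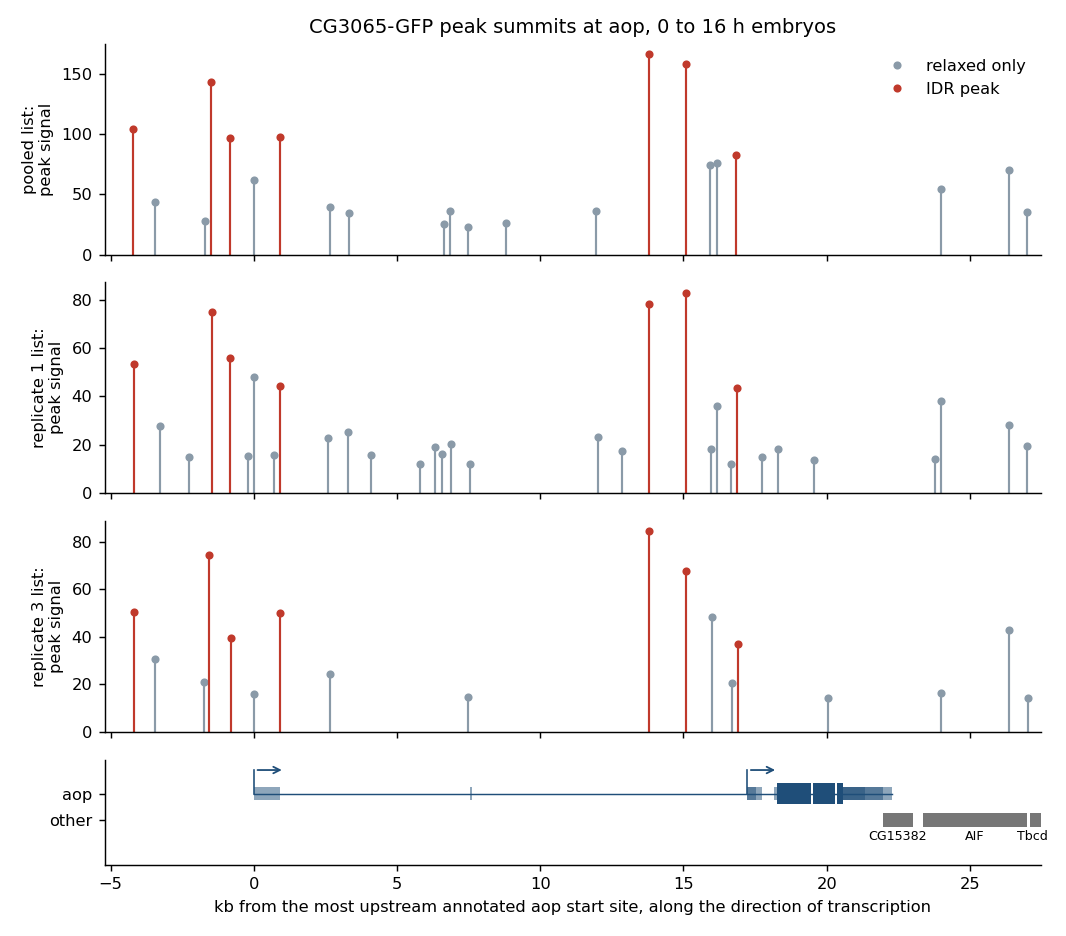
Peak signal (vertical axes, no unit) at aop against distance in kb from the distal start along the direction of transcription (horizontal axis), in the pooled, replicate 1 and replicate 3 lists, with colours and gene drawing as in the plot of Raf. The 7 IDR peaks lie in 2 clusters, 4 around the distal start and 3 upstream of the proximal start.

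**Figure D5:**
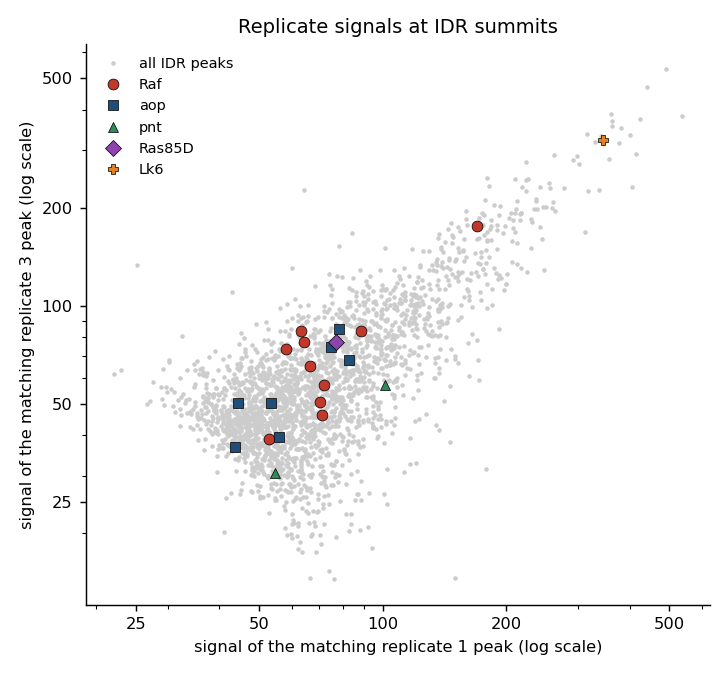
Signal of the matching replicate 3 peak (vertical axis, log scale) against that of the matching replicate 1 peak (horizontal axis, log scale) for all IDR peaks in grey and for the 21 at the members in colour. The Lk6 peak (344 and 322) and the strongest Raf peak (170 and 176) stand toward the top of the cloud, and the others lie within its main body.

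The median IDR density of the 9 members other than Raf, aop among them, was 0 per kb, as was the median over all genes. The mean over all genes was 0.0310 per kb. The member entry just inside the IDR set was that of the proximal aop promoter (83.1) and the one just outside was that near mRpL47 at Ras85D (80.9). Next below stood an entry at pnt with 80.8 and one in the Raf intron, at chrX:2318537, with 79.2.

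A list of 60 other genes of the pathway and its sister receptors was set beside the members. At least 1 IDR summit was in the window of 35 of the 60, or 58.3%, beside 33.2% of all genes, and within 500 bp of a start site at 12, or 20.0%, beside 12.0%. Their median window, 17.9 kb, was again longer than that of all genes. With gene bodies alone, 17 of the 60, or 28.3%, held an IDR summit, beside 7.15% of all genes. These bodies were also longer, with a median of 7.88 kb against 2.17 kb.

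Among the ligands and the proteins that process them, 7 of 9 genes, or 77.8%, had an IDR summit, beside 33.2% of all genes. At a start site there were 4 of the 9, or 44.4%, beside 12.0% of all genes. The ligand gene spi had 205 in the pooled list at its promoter, with 84.6 in replicate 1 and 122 in replicate 3. The ligand gene Krn had 150, with 69.5 and 83.2 in replicates 1 and 3. The secreted inhibitor gene aos had 174 at a start and 256 in an intron, and S (Star), a chaperone for ligand transport, had 104 and 262 in the same places. Without a summit at their own start, the ligand gene vn reached 203, in an intron and nearest to the start of mad2, and the protease gene ru reached 91.6.

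Of 14 genes for other receptor tyrosine kinases and their ligands, 5 had an IDR summit, or 35.7%, near the 33.2% of all genes. The FGF receptor gene htl was the only one with a summit at a start, of signal 107, and had 208 at 938 bp upstream of a start. The insulin receptor gene InR had 275 at 655 bp upstream, and jeb, the ligand gene for Alk, had 117. Of 12 genes for adaptors, phosphatases and GTPase-activating proteins, 7 had an IDR summit, or 58.3%, beside the same 33.2%. The adaptor gene Shc had 393 at its promoter, with 187 in replicate 1 and 203 in replicate 3. At dos, another adaptor gene, the promoter summit had 89.5. The genes of the GTPase-activating proteins Gap1 and Nf1 reached 242 and 187, the Nf1 one nearest to the start of CG43116.

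Among 13 kinase scaffolds and regulators, 9 had an IDR summit, or 69.2%, beside 33.2% of all genes. Those at a start were Hsp83, which encodes the chaperone Hsp90, with 284, ave with 112, and mts, the catalytic subunit of protein phosphatase 2A, with 143 at a summit nearer to the start of Rack1. The scaffold gene cnk reached 235 and Sur-8 reached 266, each nearest to the start of another gene, l(2)k01209 and sds22. Of 12 nuclear targets and effectors, 7 had an IDR summit, or 58.3%, beside the same 33.2%. The corepressor gene gro had 283 at its promoter, with 152 in replicate 1 and 119 in replicate 3. The gene edl, whose product binds ETS proteins, had 121 at a start and 227 in an intron. The ETS gene Ets65A had 222, nearest to the start of CG10467, and ttk, a repressor gene, had 134.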

How the data were processed

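Embryo ChIP-seq was read from the peak lists of the 2 replicates. Per the labels, chromatin was sonicated and fragments were 200 to 800 bp. The authors deposited narrowPeak lists in dm6 with a signal per peak (column 7) and a −log10 q-value per peak (column 9, deposited by the authors and not used to rank). Per the file records, each relaxed list was made from its reads and a control, and the IDR peaks were derived from the relaxed lists. The aligner, the caller and the threshold of the IDR step were not given in the sources used here. The deposited lists in the older build were not used.

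From these files, summits (column 2 plus column 10) were counted in each gene body with 5 kb either side and divided by its length, with the Ensembl release 115 annotation. The nearest start was taken among protein-coding genes, and a promoter was 500 bp around any annotated start site, and a replicate match was a summit within 200 bp. The deposited signal was used as it stood. Words were searched on both strands within 50 bp of a summit in RefSeq's Release 6 sequence. The counting and word search were tested on simulated data. Python 3.11.15, numpy 2.4.6, pandas 2.3.3 and matplotlib 3.10.9 were used.

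The members, the pathway list and the alternatives were chosen with earlier results of these data known. Genes named were the 10 members, every gene overlapping or starting nearest to a member IDR summit, of each role group of the pathway list all genes with a promoter IDR summit and the 2 others of highest signal, and the 3 genes next above and below Raf in IDR density. Others are named as neighbours of the entries described. With 1 group and no counts, no test was run. The closing section gives the effect of other windows, promoter widths, match distances and peak sets, and of using 1 replicate.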

Additional observations from a re-analysis of the deposited data

How the results depend on the processing

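Other windows (the gene body alone, 2 kb or 10 kb either side), other promoter widths and match distances, the IDR peaks above the median IDR signal, and the 2451 strongest entries of 1 replicate in place of the IDR set were tried. RefSeq gene bounds were those of the annotation used for all 10 members, so they gave no alternative. Of 48 such values, 40 were within 1.5 times of those reported, 6 were not and 2 changed sign. The 2451 strongest entries of either replicate alone gave 10 at Raf, or 0.171 per kb, but in replicate 3 these were not the 10 IDR summits, since 2 of those share 1 entry and an entry outside the IDR set was included. Counting its overlapping peaks once, a choice made after seeing the data, gave 0.154 IDR summits per kb there. The median over the 9 other members was 0.0303 per kb without replicate 1 and 0.0607 without replicate 3, against 0 as reported. With gene bodies alone, 17 of the other pathway genes had an IDR summit in place of 35, beside 7.15% of all genes in place of 33.2%. Among IDR peaks above the median IDR signal, 1 member had a promoter summit in place of 3. The difference of aop minus Raf, 0.0457 IDR summits per kb as reported, was -0.00633 with gene bodies alone and -0.0269 with IDR peaks above that median, and between 0.0147 and 0.0767 with 1 replicate left out, alternatives also added after seeing the data. The cause of these shifts was not tested. Some alternatives count other stretches of sequence or fewer peaks. Those with 1 replicate left out count an equal number of peaks, 2451, over the same windows. No paired analysis was possible because there was only 1 group. Depth is unknown, so a member without an IDR summit may lie below what these libraries could detect.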

Other observations

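The word TTGGCG, noticed when the member windows were read and so chosen after its values were seen, lay within 50 bp of 6 of the 21 member IDR summits, 2 at Raf, 3 at aop and 1 at pnt. Of all 2451 IDR windows, 102, or 4.16%, held it, as did 5.83% of windows placed 500 bp to the right. At the members, 0 of 21 windows on the right held it. The aop windows at chr2L:2161921 and chr2L:2163649 shared a word of 11 bases that starts with TTGGCG, the longest shared by any pair of the 7 aop windows. No factor is named here for this word.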
